A study of Rattus norvegicus with 64 samples.

Results

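Lungs of rats exposed to fracking sand dust at 10 mg/m3 were compared between day 7 and day 1 after the last exposure, with 5 rats on each day. These 10 libraries, of 64 in the series, were taken by dose, treatment and day as labelled, by a rule that used no measured value. Earlier results of these data were known when this comparison and the gene lists were chosen. All rats were male Sprague-Dawley animals, an outbred laboratory strain; their age is not stated in the labels. Both groups had breathed the dust with the whole body exposed, 6 hours on each of 4 days, so the comparison describes the week that followed exposure and holds no unexposed rat. Filtered-air rats of the same study, 5 on day 1 and 5 on day 7, and a second set of rats given 30 mg/m3, 6 on each day, served as comparison sets. Fracking sand is the quartz-rich sand pumped into wells to prop open rock, and its dust carries respirable silica. RNA came from 1 piece of lung per rat, so fewer cells of a type and less RNA per cell cannot be told apart.

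Inhaled silica particles are taken up by alveolar macrophages, where they can damage lysosomes and trigger the inflammasome, a protein complex that matures interleukin 1. Macrophages and epithelium then release chemokines that draw neutrophils, antioxidant genes under the factor NRF2 can be induced, and repair engages alveolar type 2 cells, which make surfactant and renew the alveolar lining, as well as matrix-producing fibroblasts. Separately, every nucleated cell removes introns from its transcripts with the spliceosome. SR proteins, which carry stretches rich in serine and arginine, help it to pick exons, and the CLK kinases and cyclin L proteins regulate them; several of these genes control their own messages by keeping an intron or including an exon that blocks translation.

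The tissue carried the markers of lung. Sftpc, the surfactant protein made by alveolar type 2 cells, was at 7242 to 11660 CPM (counts of a gene relative to its library's total, on edgeR's scaled library sizes) on day 1 and 7201 to 8730 CPM on day 7. Library totals ran from 3420235 to 10282782 counts on day 1 and from 6180793 to 8647954 on day 7. The lowest belonged to rat 27 of day 1, in which mitochondrial ribosomal RNA took 2.62% of the counts. This share was 0.493% to 0.819% in the other 4 rats of that day and 1.47% to 3.12% in the 5 rats of day 7. The difference in this share was not significant (exact two-sided permutation test, p = 0.0714, adjusted p = 0.5 over 7 library measures; the smallest p possible is 0.00794). The 6 other measures, from the library total to the cardiac and smooth muscle scores, gave an exact permutation p of 0.278 or more.

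Over this week 1844 of 15668 genes tested changed at an adjusted p under 0.05 by edgeR's quasi-likelihood test, 11.8% of them. Of these, 1207 were higher on day 7 (7.70% of genes tested) and 637 were lower (4.07%). The changes were small, with a median log2 fold change of 0.54 among the risen genes and -0.39 among the fallen genes, and a median of -0.02 over all genes. Of all genes tested 47.2% were above 0. For 912 of the 1207 risen genes every rat of day 7 lay above every rat of day 1, and for 425 of the 637 fallen genes every rat of day 7 lay below; over all genes tested such separation was seen in 7.95% and 4.98%. Each library is a separate rat, so the p-values measure the spread between rats of a day. The count was 2587 without rat 27 of day 1, 1219 without rat 29 of day 1, 1077 without rat 45 and 1123 without rat 47 of day 7. Genes known by a provisional locus symbol or a copy number made up 344 of the risen genes (28.5%), 44 of the fallen (6.91%) and 15.9% of those tested; they are counted in these totals but not described. Among them LOC103691156 (log2 change 2.24) and LOC102553001 (1.49) had the smallest p values of all. Next in order came the glycolytic enzyme gene Eno1, which fell, and the RNA processing genes Prpf4b, Cpsf6 and Ccnl1, which rose.

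**Figure D1:**
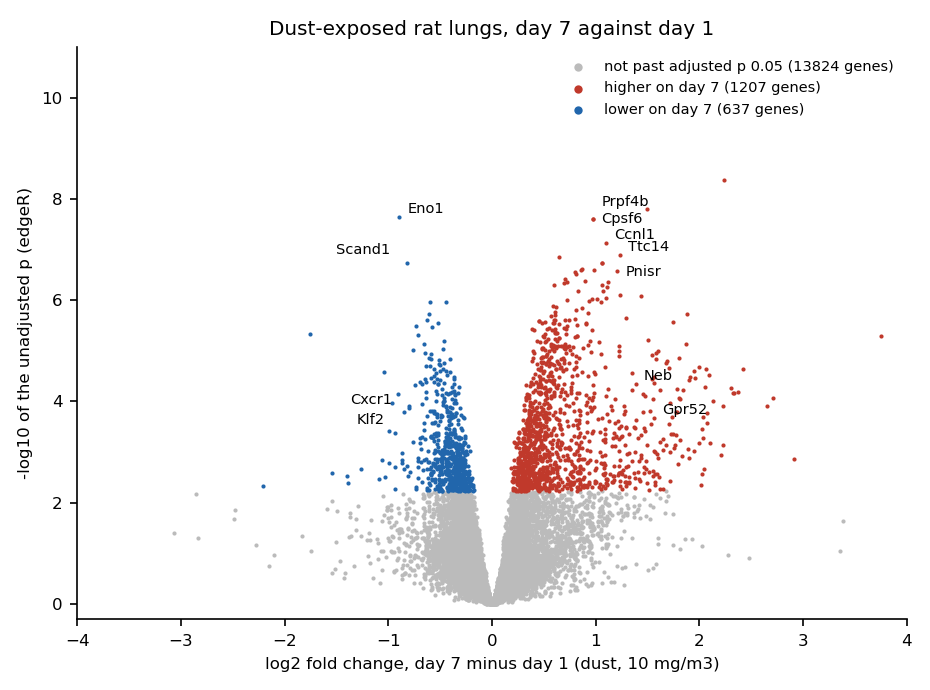
Each point is 1 of the genes tested in dust-exposed lungs at 10 mg/m3, placed by its log2 fold change from day 1 to day 7 and by -log10 of its unadjusted p; 2 genes lie beyond the axis limit of 4. Red marks the 1207 genes higher and blue the 637 lower on day 7, and the labelled splicing genes lie at log2 fold changes between 0.97 and 1.23.

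By p value, genes of splicing and RNA processing stood high among the rises; by size the largest rises were in other genes, such as Ly49si1 (2.91) and Pcdha11 (2.04). The families below were put together after the values had been seen, so their counts are a description, to be read beside the 7.70% of all genes called higher. Among the CLK kinases and cyclin L genes 4 of 6 rose, with a median log2 fold change of 0.96, and all 3 LUC7-like genes, which encode partners of the U1 particle that marks the start of introns, rose with a median of 0.86. Of 11 SR splicing factors 7 rose and 0 fell, with a median of 0.35. Of 13 pre-mRNA processing factors 5 rose and 0 fell, and of 39 genes for RNA-binding motif proteins 11 rose and 1 fell. Of 18 hnRNP proteins, abundant binders of nuclear transcripts, 3 rose, with a median of 0.05, against a median of -0.02 over all genes. Without rat 27 of day 1 these counts were 6 of 6, 3 of 3, 7, 5, 14 and 3, and after adjustment for the share of mitochondrial ribosomal RNA they were 4, 3, 7, 5, 9 and 4. That adjustment also gave 1 fallen SR factor, 1 fallen processing factor and 2 fallen hnRNP genes, with an hnRNP median of -0.03. These families rose in air rats of the same days too, where 3.53% of all genes were called higher. In air 4 CLK and cyclin L genes rose (median 0.71), all 3 LUC7-like genes (0.71) and 6 SR factors (0.31). So did 3 processing factors (0.14), 10 RNA-binding motif genes (0.23, with 2 fallen) and 5 hnRNP genes (0.245).

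Prpf4b encodes a kinase of the spliceosome. Its level was 132, 147, 139, 155 and 159 CPM in rats 27, 29, 30, 31 and 32 of day 1, and 281, 303, 328, 298 and 229 CPM in rats 43, 44, 45, 47 and 48 of day 7. The groups did not overlap. The log2 rise was 0.97 ± 0.13 (SE, n = 5 each), with an adjusted p of 7.9e-05 by edgeR. Ccnl1, cyclin L1, was at 50.44, 66.89, 57.73, 64.97 and 64.72 CPM on day 1 and at 131, 139, 140, 134 and 111 CPM on day 7, in the same order of rats. It rose by 1.10 ± 0.15 (SE), with an adjusted p of 0.000193, and again the ranges did not overlap. Ttc14, a tetratricopeptide repeat gene, was between 80.4 and 92.5 CPM in the 5 rats of day 1 and between 184 and 218 CPM in those of day 7, a log2 rise of 1.23 ± 0.17 (SE), with an adjusted p of 0.000265.

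Cpsf6, a subunit of the complex that chooses the polyadenylation site, was at 168, 199, 209, 207 and 209 CPM on day 1, with rat 27 lowest, and at 406, 367, 422, 382 and 377 CPM on day 7. It rose by 0.98 ± 0.13 (SE), with an adjusted p of 7.9e-05. Srsf5, an SR protein, was at 273 CPM in rat 27 and at 229 to 240 CPM in the other 4 rats of day 1, against 371 to 465 CPM on day 7, a log2 fold change of 0.77. The kinase genes Clk1 and Clk4, whose products phosphorylate SR proteins, rose by 0.90 and 1.02, cyclin L2 (Ccnl2) by 1.09, and the LUC7-like genes Luc7l3, Luc7l2 and Luc7l by 0.98, 0.86 and 0.41. Pnisr and Son, large proteins of nuclear speckles, where splicing factors are stored, rose by 1.21 and 0.73, and the SR-related gene Srek1 by 1.10. Further rises were those of Rbm26 (1.07), Rbm25 (0.76), Prpf39 (1.06), Srsf7 (0.64), Srsf11 (0.46), Hnrnph1 (0.72), Hnrnpdl (0.60), Zcchc7 (1.06), Tial1 (0.86) and the helicase gene Ddx17 (0.48). From Prpf4b to Ddx17, each of these risen genes kept an adjusted p under 0.05 when each of the 10 libraries was left out in turn.

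Because these genes moved together, the sequence around their starts was read from RefSeq (rat assembly GRCr8, another build than the one used for counting). A window from 250 bases before to 50 bases after the start was found for 18 of 20 risen splicing and RNA genes, chosen after their values had been seen. The motif CCGGAAG, bound by ETS factors, was in 6 of these windows on either strand and in 16.3% of the 9707 windows of genes tested. The cyclic AMP response element TGACGTCA was in 1 (2.98%), the E-box CACGTG in 1 (9.03%), the NRF1 motif in 0 (1.85%), the SP1 motif GGGCGG in 13 (60.5%) and the YY1 motif in 1 (2.55%). Both strands were searched for every motif, overlaps between motifs were kept, and a match is a description of the letters only. The windows of Ttc14 (chr2:118581575-118581874, plus strand) and Srsf7 (chr6:20563802-20564101, plus strand), both with the ETS motif in capitals (on the other strand in Ttc14, where it reads CTTCCGG), and of Ccnl1 (chr2:152507419-152507718, minus strand), with the cyclic AMP response element in capitals, are shown 5′ to 3′ as examples of risen genes.
Ttc14: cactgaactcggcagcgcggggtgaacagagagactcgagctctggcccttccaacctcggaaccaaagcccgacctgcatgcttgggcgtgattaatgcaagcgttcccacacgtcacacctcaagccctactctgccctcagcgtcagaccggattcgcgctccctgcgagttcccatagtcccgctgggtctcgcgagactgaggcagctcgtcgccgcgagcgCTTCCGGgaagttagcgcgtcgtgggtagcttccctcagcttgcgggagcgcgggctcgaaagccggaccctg
Srsf7: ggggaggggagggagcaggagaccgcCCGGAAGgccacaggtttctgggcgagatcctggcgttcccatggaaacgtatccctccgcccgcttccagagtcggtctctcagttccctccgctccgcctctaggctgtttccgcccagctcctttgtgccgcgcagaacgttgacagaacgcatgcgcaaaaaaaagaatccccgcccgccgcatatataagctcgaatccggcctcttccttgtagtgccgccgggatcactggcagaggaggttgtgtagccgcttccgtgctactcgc
Ccnl1: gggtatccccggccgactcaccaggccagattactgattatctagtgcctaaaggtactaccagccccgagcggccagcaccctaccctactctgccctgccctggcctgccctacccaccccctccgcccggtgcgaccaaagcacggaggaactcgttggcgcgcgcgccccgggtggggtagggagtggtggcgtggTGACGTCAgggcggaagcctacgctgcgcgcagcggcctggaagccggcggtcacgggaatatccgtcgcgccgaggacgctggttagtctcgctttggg

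Large rises also came from genes at low levels. The 15 largest log2 rises among genes with a full symbol that averaged 1 CPM or more over the 10 libraries included 4 alpha protocadherins, cell adhesion proteins best known from neurons, led by Pcdha11 (2.04) and Pcdha8 (1.73). Over all clustered protocadherins, also put together after the values had been seen, 13 of 45 rose and 0 fell, with a median log2 fold change of 0.57. Without rat 27 of day 1 the count was 20. Of all genes tested 7.70% were called higher. In air 5 of the 45 rose and 0 fell, with a median of 0.53. Members of a cluster share their last exons, so how reads were divided among them is uncertain. Gpr52, an orphan receptor gene, was at 2.77, 2.47, 1.93, 3.38 and 3.47 CPM on day 1 and at 7.93, 9.56, 9.55, 7.25 and 7.37 CPM on day 7, and rose by 1.56 ± 0.36 (SE), with an adjusted p of 0.00647. Neb, which encodes the giant muscle protein nebulin, was at 108 to 260 CPM on day 1 and 369 to 523 CPM on day 7, a rise of 1.39 ± 0.28 (SE), with an adjusted p of 0.00254. Neither gene's groups overlapped.

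The other large rises were Ly49si1 (2.91), a natural killer receptor family member, Gja6 (1.82), a connexin, Pou5f2 (1.77), Cyp26c1 (1.72), an enzyme that breaks down retinoic acid, C1H19orf84 (1.71), Adam4 (1.59), Sycp2 (1.54), a protein of meiotic chromosomes, Gnrh1 (1.47), the gonadotropin-releasing hormone gene, and Rbm39 (1.28). Ly49si1 was at 0 in rats 27 and 29, and its groups overlapped. Counts of Ly49si1, Adam4 and Rbm39 are uncertain where near-identical relatives share reads. The call was lost when single rats were left out for Ly49si1, Gja6, Cyp26c1, Adam4, Pcdha10, Pcdha12 and Rbm39, with an adjusted p of up to 0.115 (Pcdha12 without rat 31 of day 1). Outside these groups, Macf1, a giant linker of actin and microtubules, stood out by level: 4899 to 6049 CPM on day 1 and 8053 to 9852 CPM on day 7, a rise of 0.80 ± 0.14 (SE), with an adjusted p of 0.000713. Among 232 genes named as zinc finger proteins (Zfp), a family put together after the values had been seen, 42 rose and 1 fell. Their median was 0.12, and 7.70% of all genes tested were called higher. In air 14 of them rose and 1 fell, with a median of 0.11.

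Falls were led by genes of glycolysis and the KLF transcription factors. Eno1, the glycolytic enzyme enolase, was at 87.36, 93.98, 103.3, 88.37 and 92.04 CPM on day 1 and at 46.33, 46.35, 51.09, 45.69 and 60.74 CPM on day 7. The ranges did not overlap, and the gene fell by 0.90 ± 0.12 (SE), with an adjusted p of 7.9e-05. Of 18 glycolytic enzyme genes tested 3 fell and 0 rose, the others being Pgam1 (-0.43) and Gpi (-0.32). Over all genes tested 4.07% were called lower, and in air 2 of the 18 fell. This family was put together after the values had been seen. Eno1 has processed copies that can take reads.

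Klf2, a factor that keeps vessel lining and lymphocytes quiescent, was at 159 CPM in rat 27 and at 62.6 to 83.5 CPM in the other 4 rats of day 1, against 42.9 to 50.1 CPM on day 7. It fell by 0.94 ± 0.23 (SE), with an adjusted p of 0.0102. The relatives Klf16, Klf4, Klf6 and Klf9 fell by 0.91, 0.59, 0.40 and 0.40, so that 5 of 15 KLF genes fell and 0 rose. Over all genes tested 4.07% were called lower, and in air 2 of the 15 fell. The KLF family too was put together after the values had been seen. Scand1, a zinc finger partner protein, fell by 0.82 (adjusted p = 0.000265). Among the 15 largest falls were also Terc (-1.40), the telomerase RNA, Doc2b (-1.26), a calcium sensor of vesicle release, Nags (-1.08), Tmem158 (-1.06), Marcksl1 (-0.99), Mafa (-0.99), Neurl1b (-0.97), Gpr27 (-0.94), Hpn (-0.93), Tuba1c (-0.87), a tubulin, and Cyr61 (-0.87), a matrix protein induced by cell stretch. Of these, Terc, Doc2b, Nags, Tmem158, Mafa, Gpr27, Hpn, Tuba1c and Cyr61 lost the call without 1 or more of the 10 rats, with an adjusted p of up to 0.124 for Gpr27 without rat 43 of day 7; Klf4 and Klf9 did so too.

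**Figure D2:**
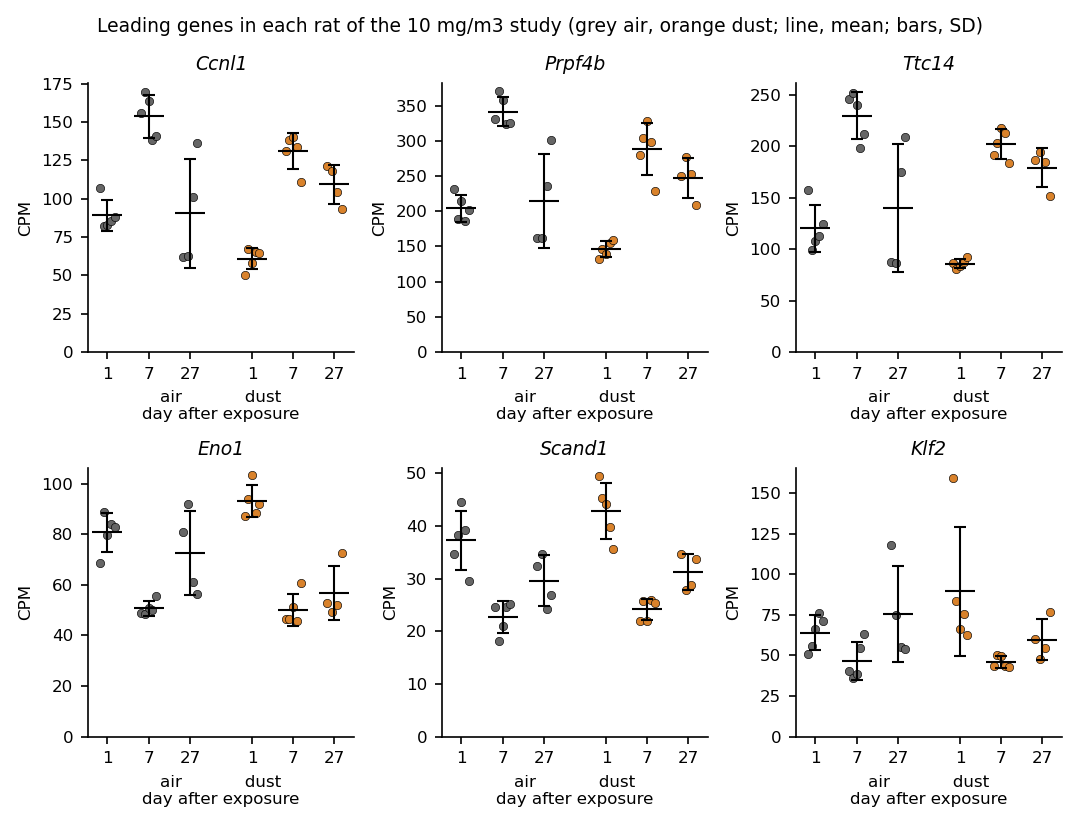
Levels in CPM (vertical axis) of 3 risen and 3 fallen genes in each rat of the 10 mg/m3 study, by day 1, 7 or 27 after exposure (horizontal axis) in air (grey) and dust (orange); lines are means and bars SD. In dust, Ccnl1, Prpf4b and Ttc14 have every rat of day 7 above every rat of day 1, and Eno1, Scand1 and Klf2 have them below, with rat 27 of day 1 at 159 CPM for Klf2.

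Genes of protein synthesis and energy supply that passed were lower on day 7, where 4.07% of all genes tested were called lower and 47.2% were above 0. Of 80 cytosolic ribosomal protein genes 7 fell and 0 rose, among them Rps2 (-0.63) and Rplp0 (-0.38), and 73 of the 80 were below 0, with a median of -0.18 against -0.21 in air (3 fallen). Of 76 nuclear genes of the respiratory chain 8 fell and 0 rose, such as Ndufb2 of complex I (-0.52) and Atp5a1 of the ATP synthase (-0.27), with 67 below 0 and a median of -0.18 against -0.19 in air (6 fallen). These counts depended on 1 library: without rat 27 of day 1, 28 ribosomal protein genes and 30 respiratory chain genes fell, and after adjustment for the share of mitochondrial ribosomal RNA 2 and 5 did. Proteasome genes were below 0 in 33 of 37 members with 1 fallen, and 12 fell without rat 27. Ribosomal protein genes have many processed copies that can take reads.

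At most of these genes the air rats of the same days moved in the same direction. In air, 925 genes changed between day 1 and day 7 (5.90%), 553 higher (3.53%) and 372 lower (2.37%). No library is shared between the dust and air comparisons, although both share their days. Over all genes tested 50.3% were above 0 in air. Of the 1207 genes that rose in dust, 1187 (98.3%) were above 0 in air, with a median log2 change of 0.36, and 397 were called higher in air, 32.9% of the dust list and 71.8% of the air list. Of the 637 that fell in dust, 616 (96.7%) were below 0 in air, with a median of -0.27, and 176 were called lower, 27.6% of the dust list and 47.3% of the air list. The air counts depended on single rats. Without air rat 17 of day 1, 2099 genes were called in air, and 822 of 1206 risen dust genes were among those called higher. Without rats 18, 19, 20 or 21 of day 1 the air count was 296, 384, 462 or 1391, and without rats 34 or 39 of day 7 it was 399 or 602.

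The test of the difference between the dust and the air change called 0 of 15668 genes by edgeR (0%), and 522 genes had an unadjusted p under 0.05. Without any effect about 783 genes would be expected at that level. The counts were also 0 by DESeq2 and by limma voom, which gave 524 and 514 genes at that unadjusted level. For Ccnl1 the air rats were at 82.2 to 107 CPM on day 1 and 138 to 170 CPM on day 7, a rise of 0.79 ± 0.15 (SE), and the difference from dust was 0.31 ± 0.21 (SE), with an adjusted p of 1.00. For Eno1 the air change was -0.67 ± 0.12 (SE) and the difference -0.22 ± 0.16 (SE). Wide gaps were those of Ly49si1, with 2.91 in dust and -0.10 in air, C1H19orf84, with 1.71 in dust and 0.04 in air, Gp1ba, a platelet receptor chain, with 1.62 and -0.09 and a call in dust that was lost without single rats, and Oas1k, an interferon-induced gene, with 0.78 and -0.69; none of these differences passed. Time after exposure, age and handling on the day of collection cannot be told apart here, since the labels give no batch. Levels of the risen genes also differed between air rats of a single day. On day 27, air rats 1, 3, 5 and 6 had Ccnl1 at 61.9, 62.6, 101 and 136.5 CPM. Ttc14 in these rats was at 87.8, 86.6, 175 and 210 CPM. Dust rats 13, 14, 15 and 16 of day 27 were closer together, with Ccnl1 at 121, 118, 104 and 93.6 CPM. The source of this spread was not tested.

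At 30 mg/m3 the genes that changed at 10 mg/m3 had medians near 0. Between day 1 and day 7, 84 of 16190 genes changed there (0.519%), 7 higher (0.0432%) and 77 lower (0.476%); the count ran from 0 to 294 when each of the 12 rats was left out in turn. The 1207 genes had a median change of 0.01, with 664 above 0 and 0 called higher, where 48.4% of all genes tested were above 0. The 637 fallen genes had a median of 0.00 there, with 309 below 0 and 3 called lower. The difference between the changes at 10 and 30 mg/m3 passed for 1187 genes (7.33%), 839 higher (5.18%) and 348 lower (2.15%) at 10 mg/m3. The higher calls were 70.7% of these, and 58.4% when genes needed a mean of at least 1 CPM. The count was 687 without rat 45 at 10 mg/m3, 697 without rat 61 of day 1 and 658 without rat 73 of day 7 at 30 mg/m3. Ccnl1 changed by 0.03 ± 0.15 (SE) at 30 mg/m3, a difference of 1.08 ± 0.22 (SE), with an adjusted p of 0.00154, and Eno1 changed by -0.11 ± 0.09 (SE), a difference of -0.77 ± 0.14 (SE), with an adjusted p of 0.000901. Dose and set of rats cannot be told apart in this test.

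The largest differences, 5 in each direction, involved other genes. Fabp1 (4.20), A1i3 (3.59), Gc (3.42) and Cps1 (3.38), all abundant in liver, did not pass at 10 mg/m3, at 0.76, 0.34, 0.16 and 0.20, and fell at 30 mg/m3, by 3.42, 3.23, 3.25 and 3.17. These falls were near the threshold, with an adjusted p of 0.0424 to 0.0433 by edgeR. At 30 mg/m3 the call was lost for every gene without rat 57 or without rat 61 of day 1. Adjusted for the share of mitochondrial ribosomal RNA, Fabp1 passed at 10 mg/m3 (1.65; adjusted p = 0.00813 by edgeR). Ly49si1 differed by 4.04, Adh7 by -3.53, Rpl36al by -2.20, Serpinb7 by -1.74, Tmem158 by -1.55 and Neurl1b by -1.38. Serpinb7 changed by -0.83 at 10 mg/m3, which passed without rat 43 of day 7 (-1.12; adjusted p = 0.0322).

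**Figure D3:**
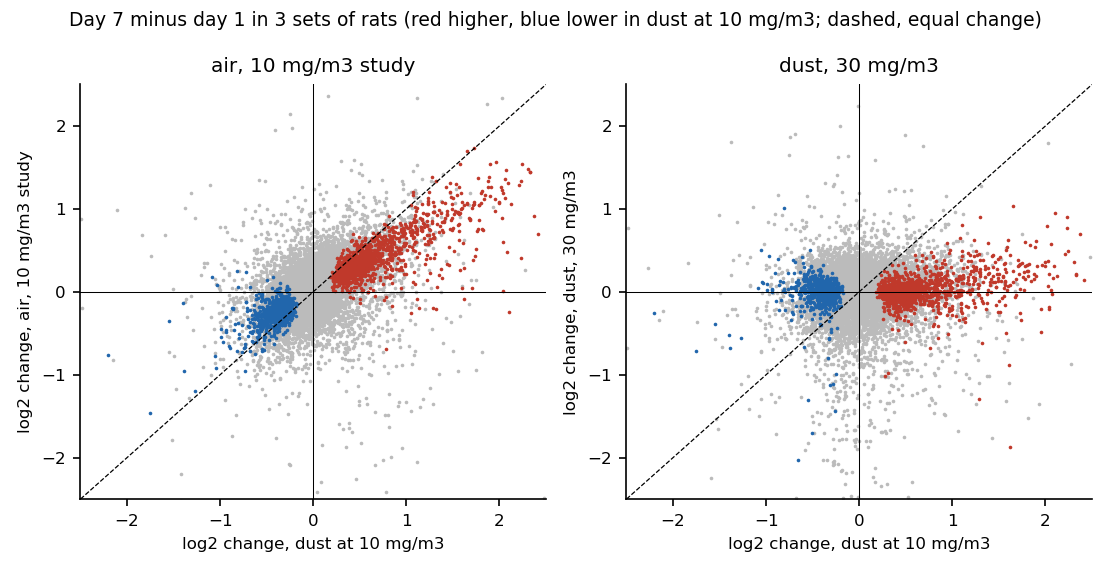
The log2 change from day 1 to day 7 of each gene in dust at 10 mg/m3 (horizontal axis) against that in air rats of the same study (left) and in dust at 30 mg/m3 (right); red and blue mark genes called higher and lower in dust at 10 mg/m3, and 19 and 57 genes lie outside the limits of 2.5. In air most red points lie above 0 and most blue points below it, and at 30 mg/m3 both lie on either side of 0.

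Immune genes moved in both directions, in lists small enough that 1 or 2 calls set their share, where 11.8% of all genes were called. Cxcr1, a receptor for neutrophil chemokines, was at 13.2, 14.7, 15.1, 16.6 and 14.2 CPM on day 1 and at 7.82, 9.56, 6.18, 7.64 and 10.3 CPM on day 7. The ranges did not overlap, and it fell by 0.84 ± 0.19 (SE), with an adjusted p of 0.00559; air rats were at 5.61 to 10.51 CPM on day 1 and 4.08 to 7.76 CPM on day 7. The related receptor Cxcr2 rose by 0.46, and 1 of 12 neutrophil markers rose and 1 fell, with a median of -0.02. Of 27 chemokines and cytokines, Cxcl3 (-0.49) and Cxcl12 (-0.49) fell and 0 rose. Cxcl1, a neutrophil chemokine, was at 5.54, 16.8, 11.3, 16.2 and 13.3 CPM on day 1 and at 22.29, 14.26, 13.04, 11.91 and 19.38 CPM on day 7, with overlapping ranges and an adjusted p of 0.553.

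In a panel of 8 genes of dust injury, edgeR, limma voom and DESeq2 each called 0. By edgeR 1 of them was at an unadjusted p under 0.05, Sftpc at -0.34, which passed without rat 27 of day 1 (-0.44; adjusted p = 0.0265). The log2 changes of the others were 0.31 for Cxcl1, 0.24 for the cytokine gene Il1b, -0.27 for the haem-degrading enzyme Hmox1, 0.16 for osteopontin (Spp1), -0.24 for the macrophage elastase Mmp12, -0.08 for Ccl2 and -0.24 for Lcn2. Lcn2, which withholds iron from bacteria, ranged from 32.6 CPM in rat 27 to 227 CPM in rat 29 on day 1 and from 88.1 to 166 CPM on day 7. Ccl2, Spp1 and Lcn2 changed sign when single rats were left out.

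Of 12 inflammasome genes tested 2 rose and 0 fell, where 7.70% of all genes were called higher and 4.07% lower. Casp4, a caspase that senses bacterial lipid inside cells, was at 9.84 CPM in rat 27, at 19.1 to 20.2 CPM in the other 4 rats of day 1 and at 23.0 to 30.4 CPM on day 7, a rise of 0.55 ± 0.15 (SE), with an adjusted p of 0.0174. Aim2, a sensor of DNA, rose by 0.85, from a range of 3.55 to 7.08 CPM to an overlapping one of 6.47 to 14.6 CPM. Of 31 interferon-stimulated genes Oas1k (0.78), Herc6 (0.56) and Ifi44 (0.45) rose and 0 fell, while 21 were below 0; without rat 27, 0 rose and 2 fell. Klrd1, the CD94 chain of natural killer receptors, was at 4.31, 5.27, 4.87, 5.71 and 3.78 CPM on day 1 and at 8.05, 7.45, 13.3, 5.83 and 11.7 CPM on day 7 and rose by 0.94 ± 0.24 (SE), with an adjusted p of 0.0128. It was the 1 risen gene of 13 natural killer and cytotoxic markers.

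Ccr3, the eotaxin receptor of eosinophils, was at 3.08 to 7.61 CPM on day 1 and at 19.7, 11.8, 5.78, 7.38 and 7.23 CPM on day 7, where rat 43 was highest and 3 rats lay within the day 1 range. It rose by 1.09 ± 0.32 (SE), with an adjusted p of 0.0248, but the call was lost without rat 43 (0.71; adjusted p = 0.122), and Alox15, a lipoxygenase of eosinophils and macrophages, fell by 0.66. Of 19 complement genes C2 and C1r fell, where 4.07% of all genes were called lower. C2 was at 118, 128, 148, 109 and 138 CPM on day 1 and at 93.6, 76.8, 72.3, 83.2 and 110 CPM on day 7, with rat 48 just inside the day 1 range, a fall of 0.56 ± 0.13 (SE), with an adjusted p of 0.00758. In the NF-kB list Birc3 rose by 0.40 and Nfkbie fell by 0.40. Cxcr2, Cxcl3, Cxcl12, Casp4, Aim2, Oas1k, Herc6, Ifi44, Klrd1, Alox15, C1r, Birc3 and Nfkbie each lost the call without 1 or more of the 10 rats, with an adjusted p of up to 0.150 for Cxcr2 without rat 48 of day 7.

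Macrophage and antioxidant genes that passed were lower on day 7, where 4.07% of all genes were called lower and 47.2% were above 0. All 13 alveolar macrophage markers tested were below 0, with a median of -0.27 against -0.03 in air; Plin2, a coat protein of lipid droplets, fell by 0.34 and Cidec, another lipid droplet protein, by 0.79. The 19 lysosome genes were all below 0 too, with a median of -0.19, against -0.13 in air, and 1 fell, Hexa (-0.31); without rat 27 of day 1, 10 fell. Of 20 NRF2 targets 3 fell and 0 rose, with a median of -0.26; in air 3 fell as well, with a median of -0.29. Without rat 27, 8 fell in dust. Nqo1, a quinone reductase, was at 36.6 CPM in rat 27 and at 54.9 to 60.9 CPM in the other rats of day 1, against 36.4 to 47.4 CPM on day 7, and fell by 0.40; Gstp1 fell by 0.30 and Txnrd1 by 0.26. After adjustment for the share of mitochondrial ribosomal RNA 0 of the NRF2 targets and 0 of the macrophage markers passed by edgeR, and Plin2, Cidec, Hexa, Nqo1, Gstp1 and Txnrd1 each lost the call without 1 or more of the 10 rats.

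In alveolar type 2 cells, Sftpb encodes the surfactant protein that spreads the lipid film. It was at 2511, 2939, 3176, 2957 and 2795 CPM on day 1 and at 2214, 2099, 2144, 2075 and 2385 CPM on day 7. All rats of day 7 lay below all rats of day 1, and the fall was 0.40 ± 0.11 (SE), with an adjusted p of 0.0144. Air rats were at 1664 to 2579 CPM on day 1 and 2063 to 2373 CPM on day 7, a change of -0.09. The difference between the dust and the air change did not pass for Sftpb or any other gene tested. Abca3, the transporter that loads surfactant lipid into lamellar bodies, was at 571 to 819 CPM on day 1 and 418 to 530 CPM on day 7 and fell by 0.55, and Cebpa, a transcription factor of these cells, fell by 0.54. Of 21 genes of the list these 3 fell, 0 rose and 18 were below 0, with a median of -0.22 against -0.04 in air. Over all genes tested 4.07% were called lower. Without rat 27 of day 1, 5 genes of the list fell and 1 rose. Abca3 and Cebpa lost the call without 1 or more of the rats, with an adjusted p of up to 0.0550 and 0.0780, both without rat 45 of day 7.

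Airway secretory genes had a median of -0.90, the lowest of the 59 lists, with all 13 genes below 0 and an air median of -0.63. By edgeR 0 of them passed and 5 were at an unadjusted p under 0.05; limma voom and DESeq2 called 1 each. Mesothelial markers, which depend on how much lung surface a piece holds, were below 0 in all 10 genes, with a median of -0.55. By edgeR 0 of them passed and 2 were at an unadjusted p under 0.05; limma voom and DESeq2 called 0. Cardiac muscle markers, from the heart muscle that sheathes pulmonary veins in rats, were above 0 in all 17 genes, with a median of 0.66 against -0.87 in air. By edgeR, limma voom and DESeq2 0 of them passed, 0 were at an unadjusted p under 0.05 by edgeR, and after adjustment for the share of mitochondrial ribosomal RNA the median was -0.33. Their mean log2 CPM ran from 0.20 to 3.799 on day 1 and from 1.44 to 4.83 on day 7. Igfbp2, an insulin-like growth factor binding protein of type 1 cells, fell by 0.60 and its relative Igfbp4 by 0.47. Among genes of alveolar salt and water transport, the chloride channel gene Cftr fell by 0.53. Igfbp2, Igfbp4 and Cftr lost the call without 1 or more of the rats.

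**Figure D4:**
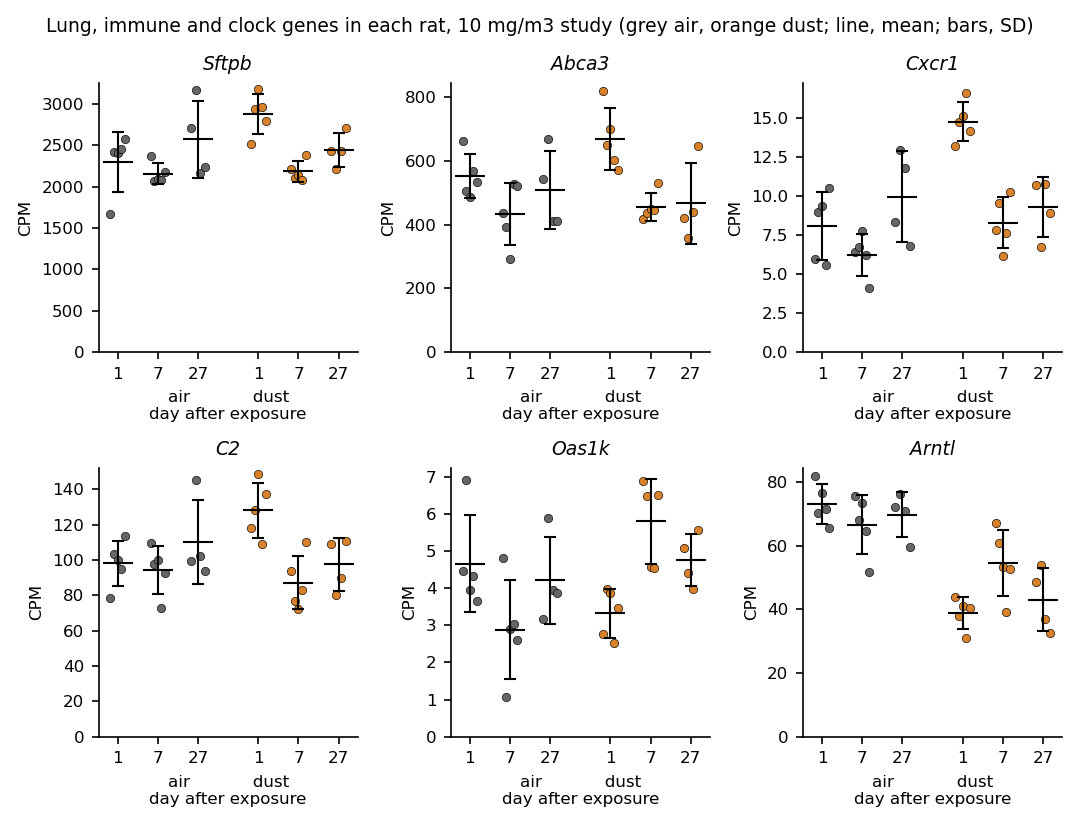
Levels in CPM (vertical axis) of 6 genes in each rat of the 10 mg/m3 study, by day 1, 7 or 27 after exposure (horizontal axis) in air (grey) and dust (orange); lines are means and bars SD. In dust, Sftpb, Abca3 and Cxcr1 on day 7 lie below the day 1 range in every rat, Oas1k lies above it, and C2 and Arntl overlap between the days.

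Matrix and vessel genes moved both ways, where 7.70% of all genes tested were called higher and 4.07% lower. Lama2, a laminin chain of basement membranes, was at 122 to 158 CPM on day 1 and 162 to 208 CPM on day 7 and rose by 0.47 ± 0.12 (SE), with an adjusted p of 0.0124; Lama4 rose by 0.25. Of 24 genes of fibrillar collagen and matrix Col6a3, a chain of collagen VI, rose by 0.38 and Loxl1, an enzyme that cross-links elastin, fell by 0.57, with 17 below 0; their median was -0.10, and 0.07 without rat 27 of day 1. Of 21 genes of TGF-beta signalling Tgfb2 (-0.36), Id3 (-0.44) and Bmp4 (-0.36) fell and 0 rose. Myh11, the myosin of smooth muscle, rose by 0.62 as the 1 risen gene of 14 smooth muscle markers, and without rat 27 of day 1, whose smooth muscle score was the highest of its group, 5 rose. Tek, the angiopoietin receptor, rose by 0.25, Reln of lymphatic vessels by 0.61, and Gja4, a connexin of arteries, fell by 0.40. Without rat 27 Loxl1 lost the call (-0.31; adjusted p = 0.0882), and Lama4, Col6a3, Id3, Bmp4, Tek, Reln and Gja4 lost it without 1 or more of the rats.

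A few clock genes passed, and their levels varied among the rats of a day. Arntl, the activator at the core of the circadian clock, was at 43.99, 37.74, 41.09, 31.04 and 40.35 CPM on day 1 and at 66.98, 60.77, 53.11, 39.09 and 52.64 CPM on day 7, where rat 47 lay within the day 1 range. It rose by 0.50 ± 0.14 (SE), with an adjusted p of 0.0180, its partner Clock rose by 0.40 and Tef, an output factor, fell by 0.43. Dbp, another output factor, was at 14.8, 34.3, 25.5, 49.7 and 29.4 CPM on day 1 and at 3.97, 7.13, 12.0, 36.2 and 19.2 CPM on day 7, and its change of -0.99 did not pass (adjusted p = 0.119). It passed by limma voom (-1.37; adjusted p = 0.0203), with the order of title numbers as a covariate (-1.01; adjusted p = 0.0189) and without rat 47 of day 7 (-1.57; adjusted p = 0.0165). Of 16 clock genes 2 rose and 1 fell, where 7.70% of all genes tested were called higher and 4.07% lower. Arntl and Tef lost the call without 1 or more of the rats. Adjusted for the order of title numbers within a day, the number of changed genes over all was 1824.

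Stress and metabolic genes that passed were mostly lower on day 7. Against the 4.07% of all genes called lower, 3 of 23 immediate early genes and 4 of 24 cholesterol synthesis genes fell. Of 23 immediate early genes Klf2, Klf6 and Klf4 fell, and 22 were below 0, with a median of -0.30 against 0.04 in air. Without rat 27 of day 1, 2 of the 23 fell and the median was -0.19. After adjustment for the share of mitochondrial ribosomal RNA 6 fell, with a median of -0.39. Trib3, a pseudokinase of the integrated stress response, fell by 0.72 and the serine synthesis enzyme Psat1 by 0.59. Of 24 genes of cholesterol synthesis 4 fell, among them Acat2 (-0.59), Insig1 (-0.41) and Fdps (-0.30), 0 rose, and 21 were below 0. Klf9 and Glul (-0.25), both induced by glucocorticoids, fell, and the histone demethylase gene Kdm3a, a hypoxia target, rose by 0.47. Pola1, the catalytic subunit of DNA polymerase alpha, rose by 0.41 as the 1 changed gene of 29 replication genes. Over all genes tested 7.70% were called higher. Trib3, Glul, Acat2, Insig1 and Fdps lost the call without 1 or more of the rats, with an adjusted p of up to 0.177 for Fdps without rat 32 of day 1.

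Several marker lists gave 0 calls by edgeR. Of 21 T cell markers 1 was at an unadjusted p under 0.05, of 13 B and plasma cell markers 3, of 12 dendritic cell markers 3, of 12 mast cell and basophil markers 0 and of 12 erythroid genes 5. DESeq2 called 2 of the B cell genes and limma voom 1, and both called 0 of the others. For 27 mitosis genes all 3 tools called 0, edgeR gave 0 at an unadjusted p under 0.05, and the median was 0.00.

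**Figure D5:**
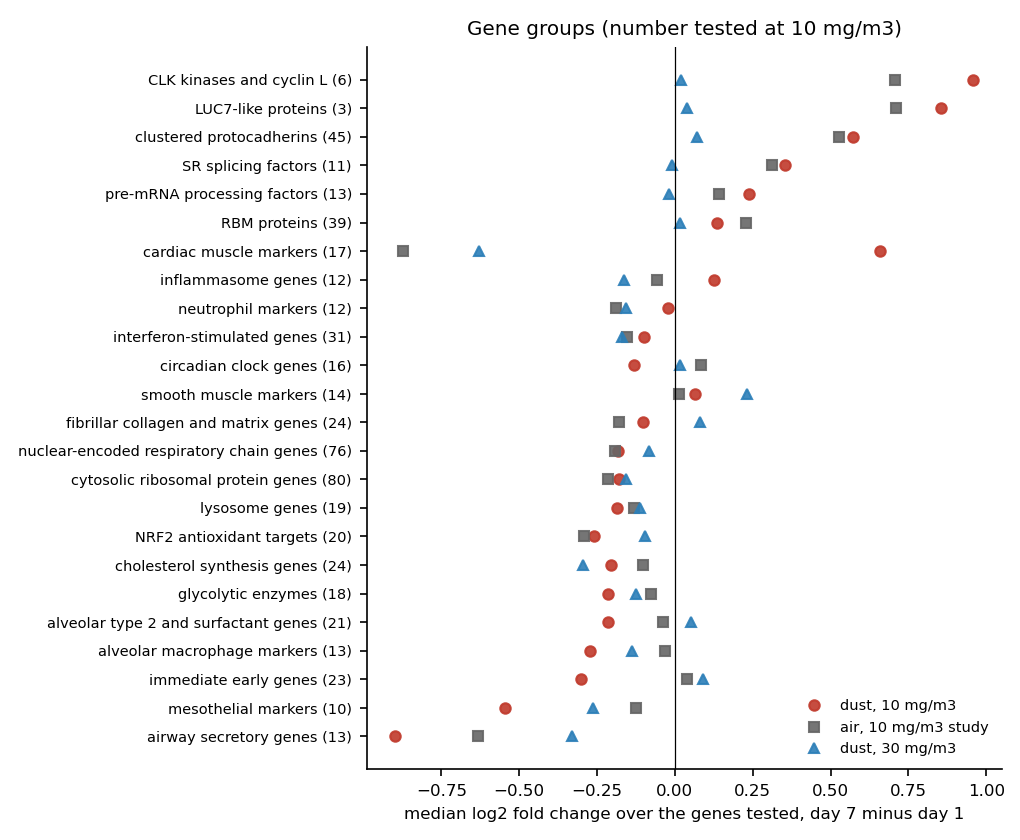
Median log2 fold change from day 1 to day 7 (horizontal axis) of 24 gene groups (vertical axis, with the number of genes tested) in dust at 10 mg/m3 (red circles), in air rats of the same study (grey squares) and in dust at 30 mg/m3 (blue triangles). The splicing families lie to the right in both sets of the 10 mg/m3 study and near 0 at 30 mg/m3, and airway secretory genes have the lowest red circle.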

How the data were processed

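The deposited counts are whole reads per gene symbol for each rat lung. The authors made them from a stranded, ribosomal-RNA-depleted total RNA library, per the labels' protocols, and the submitters' processing notes list HTSeq 0.6.1, HISAT2 2.1.0, Trimmomatic 0.35, bcl2fastq 2.19, SAMtools 1.8 and the build Rnor_6.0. No source used here gives the gene models or whether counting used strand, which leaves overlapping genes uncertain. The members and gene lists were chosen with earlier results of these data known, and the 14 gene families after the values of this comparison had been seen.

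The 28 libraries of the 10 mg/m3 study were fitted together, and the 30 mg/m3 contrast used all 64. Genes needed about 10 counts in enough libraries (edgeR's filterByExpr, minimum total 15), which left 15668 of 30045. Counts were scaled by TMM and tested with edgeR 4.0.16 (robust quasi-likelihood test, R 4.3.3), with Benjamini-Hochberg adjustment over all genes tested and a threshold of 0.05. CPM used the same scaling. Each SE was computed from a gene's log2 change and its F statistic in these fits, which estimate the spread over all groups fitted together. limma 3.58.1 (voom), DESeq2 1.42.0, other scalings, filters and covariates, and leaving out each rat were alternatives; the tests were also run on simulated data. Genes named were the 15 largest rises and 15 largest falls among called genes with a full symbol that averaged 1 CPM or more, a panel of 8 genes, up to 5 members of each list and the 5 largest differences each way; the genes with the smallest p and those of the families were chosen after their values were seen. The lists of cell types and pathways hold 59 sets. Some results are not reported here.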

Additional observations from a re-analysis of the deposited data

Results flagged for a closer look

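Rat 27 of day 1 stood apart from the other 4 rats of its group in its library and in several genes. Its library held 3420235 counts, against 9255890 in the next lowest, and 17870 genes were detected, against 19180. Mitochondrial ribosomal RNA took 2.62% of its counts, against 0.819% in the next highest rat, and its smooth muscle score, a mean log2 CPM, was 7.21, against 6.29. Among the genes described by rat, it was highest for Srsf5 (273 CPM, next 240) and Klf2 (159 CPM, next 83.5) and lowest for Cpsf6 (168 CPM, next 199), Casp4 (9.84 CPM, next 19.1) and Nqo1 (36.6 CPM, next 54.9). On day 7, rat 48 was highest for Abca3 at 530 CPM, with the next rat at 448 CPM. In each case the gap to the nearest rat was over 0.71 of the range of the group of 5. Of 64 groups examined 10 were so marked, where chance marks about 1 in 20. The part of this library in the results was not tested beyond the values without it.

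The change from day 1 to day 7 differed between dust at 10 and at 30 mg/m3 for 1187 genes. Named by size, the differences were 4.20 for Fabp1, 4.04 for Ly49si1, 3.59 for A1i3, 3.42 for Gc and 3.38 for Cps1 on the higher side, and -3.53 for Adh7, -2.20 for Rpl36al, -1.74 for Serpinb7, -1.55 for Tmem158 and -1.38 for Neurl1b on the lower side. The doses were given to separate sets of rats, each with its own air controls, so dose and set cannot be told apart.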

How the results depend on the processing

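In dust at 10 mg/m3, 1414 to 2528 genes were called under the other scalings, filters, covariates and tools, and 1077 to 2587 when each rat was left out. The air count was 1453 by DESeq2 and 316 when the other groups were left out of the fit, and 296 to 2099 when each rat was left out. The dust-air difference gave 0 calls under every setting run. At 30 mg/m3 the count of 84 was 0 with no filter on low counts, 0 with the mitochondrial ribosomal RNA covariate, 0 by limma voom, 54 with a mean of at least 1 CPM, 10 with a cardiac score covariate, 219 by DESeq2, 4 with only the compared groups, and 0 to 294 without single rats. The difference between the doses, 1187 genes, was 767 with no filter, 2397 with the mitochondrial ribosomal RNA covariate and 658 to 1427 without single rats, and the higher calls were 57.2% with no filter and 58.9% with that covariate. Genes that did not pass changed sign: Ccl2 (0.14) and Spp1 (-0.16) with the mitochondrial ribosomal RNA covariate, Gc (-0.047) and Cps1 (-0.014) with the title number, and, without single rats, Ccl2 (-0.20 to 0.055), Spp1 (-0.050 to 0.47), Lcn2 (-0.47 to 0.0047) and Gc (-0.026 to 0.39). Genes that did not pass were called in 6 single settings: Dbp in 3 (limma voom, the title number, without rat 47 of day 7), Fabp1 with the mitochondrial ribosomal RNA covariate, Serpinb7 without rat 43 of day 7 and Sftpc without rat 27 of day 1. The cause was not tested.

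Of 126 genes named and called, 61 kept the call in all 10 fits that left out 1 rat of day 1 or day 7, and 65 lost it in 1 or more, with an adjusted p of up to 0.177. Adjusted for the mitochondrial ribosomal RNA share, 6 immediate early genes and 7 matrix genes fell in place of 3 and 1. Depth limited most the library of rat 27 of day 1, with 3420235 counts. No paired analysis was possible because each title number belongs to 1 rat and no number is shared between the days.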

Other observations

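Further gene groups of dust-exposed lungs held genes that changed between day 1 and day 7, where 7.70% of all genes were called higher and 4.07% lower. Of 36 DEAD-box RNA helicases 7 rose, among them Ddx5 (0.38) and Ddx46 (0.36), and Ddx54 fell by 0.48; the median was 0.10 against -0.02 over all genes, and in air 9 rose and 1 fell. Of 17 subunits of the vacuolar proton pump, which acidifies lysosomes, Atp6v0b (-0.35), Atp6v0e1 (-0.31) and Atp6v0e2 (-0.41) fell; 7 fell without rat 27 of day 1 and 0 after adjustment for the share of mitochondrial ribosomal RNA. Of 29 clustered histone genes Hist1h2ao (-0.51) and Hist1h4a (-0.62) fell, with a median of -0.25 against -0.41 in air, and 0 passed after that adjustment. The tubulin Tubb4b fell by 0.43 in dust and changed by -0.41 in air.

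By edgeR 0 of 13 markers of monocytes and interstitial macrophages passed, with 3 at an unadjusted p under 0.05, and the same held for 0 of 10 genes of antigen presentation by MHC class II, with 3. Ciliated cells had 0 of 19 markers called and 2 at that unadjusted level, and heat shock genes 0 of 21 and 1. For these 4 lists limma voom and DESeq2 also called 0.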
